A study of Cricetulus griseus with 3 samples.

Results

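Microtubules are hollow polymers of α- and β-tubulin along which kinesins and cytoplasmic dynein carry cargo, move chromosomes and build the primary cilium. The genes described here encode tubulins, kinesins and their light chains, dynein and dynactin subunits, intraflagellar transport (IFT) and BBSome proteins, stathmins, the end-binding protein EB1 and centrosomal Cep proteins. They were chosen by the start of the gene name among array spots whose annotation gave a single name, which took 107 of the 16928 tested spots and 72 of 8146 genes. The rule reads names alone and no measured value.

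The study set CHO (Chinese hamster ovary) cells with enhanced γ-secretase activity against CHO cells in which this protease was inhibited. S-1 is a line derived from CHO, through an intermediate line, that carries Flag-PEN2, APH1-a2-HA, NCT-GST and the catalytic subunit. The study also marks APP as overexpressed in S-1. The S-1 line was grown under G418, puromycin, zeocin, hygromycin and blasticidin. S-1 cells received 0.05% DMSO for 24 h, and untransfected parental CHO cells received 10 µM DAPT, a γ-secretase inhibitor, in the same 0.05% DMSO for 24 h. On each of 3 mouse cDNA arrays an S-1 culture met a culture of DAPT-treated CHO cells, with S-1 in Cy3 on arrays 1 and 2 and in Cy5 on array 3. The effects of line, transgenes, drug selection and inhibitor cannot be told apart, because they changed together, and S-1 is a single line.

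Every value is a log2 ratio with S-1 on top and DAPT-treated CHO below, so that a negative value means lower in S-1. This direction is likely rather than stated in the labels, and it rests on the clone lists of the study, which class positive ratios as increased in S-1. The transfected Psenen (the gene of PEN2) stood at 3.09 ± 0.25 and Aph1a at 2.02 ± 0.16, whereas Ncstn (the gene of NCT) was at 0.38 ± 0.25 and did not pass the test (SD, n = 3, limma adjusted p = 0.0313). Pearson's r between arrays over the 107 spots, which are not independent replicates, was 0.959 for arrays 1 and 2, 0.738 for arrays 1 and 3 and 0.745 for arrays 2 and 3. Over all tested spots it was 0.962, 0.878 and 0.892. Ratios carry no expression level, so levels of different genes were not compared and the cell type could not be checked against its markers. A spot can also bind transcripts of close relatives, a limit for the β-tubulins in particular, and mouse probes met hamster RNA.

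The cytoskeletal genes went both ways. Of the 72 gene values, 8 were higher in S-1 (11.1%), 12 were lower (16.7%) and 52 did not pass an adjusted p of 0.005 (limma, adjusted over all genes), beside 12.4% higher and 10.3% lower among all 8146 genes. Of the 107 single spots, 6 were higher (5.61%) and 15 lower (14.0%), beside 9.68% and 8.52% of all tested spots. In either direction, 27.8% of the genes passed beside 22.6% of all genes, and 19.6% of the spots beside 18.2% of all tested spots. The clone collection that held 106 of the 107 spots, called H in the study's lists, had 6.76% of its spots higher, 8.52% lower and 15.3% in either direction. In a fit of H clones alone, 27.8% of the 72 genes passed beside 18.7% of all genes. The differences between these shares were not tested. The median gene value was 0.01 for the cytoskeletal genes and 0.01 for all genes, and the median absolute value was 0.18 against 0.17. Values were positive for 36 genes and negative for 36, and 19 lay within 0.1 of 0. Only Tubb4b changed by more than 1 on the log2 scale.

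The 20 genes that passed had 1 sign on all 3 arrays, with SDs between 0.02 and 0.27. Leaving out array 1 or array 2 ended 19 of these 20 calls, with adjusted p-values up to 0.0526 (limma). Tubb4b alone passed in both cases. All 20 values kept their sign, which was fixed in advance because each gene had 1 sign on all 3 arrays. Without array 1 the limma counts were 0 higher and 1 lower (15 and 17 at an unadjusted p under 0.05), beside calls for 8.26% of all genes, and without array 2 they were also 0 and 1 (15 and 19 unadjusted), beside 5.97% of all genes. Without array 3 they were 15 and 17, beside 40.5% of all genes, with S-1 in Cy3 on both arrays that were left.

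**Figure D1:**
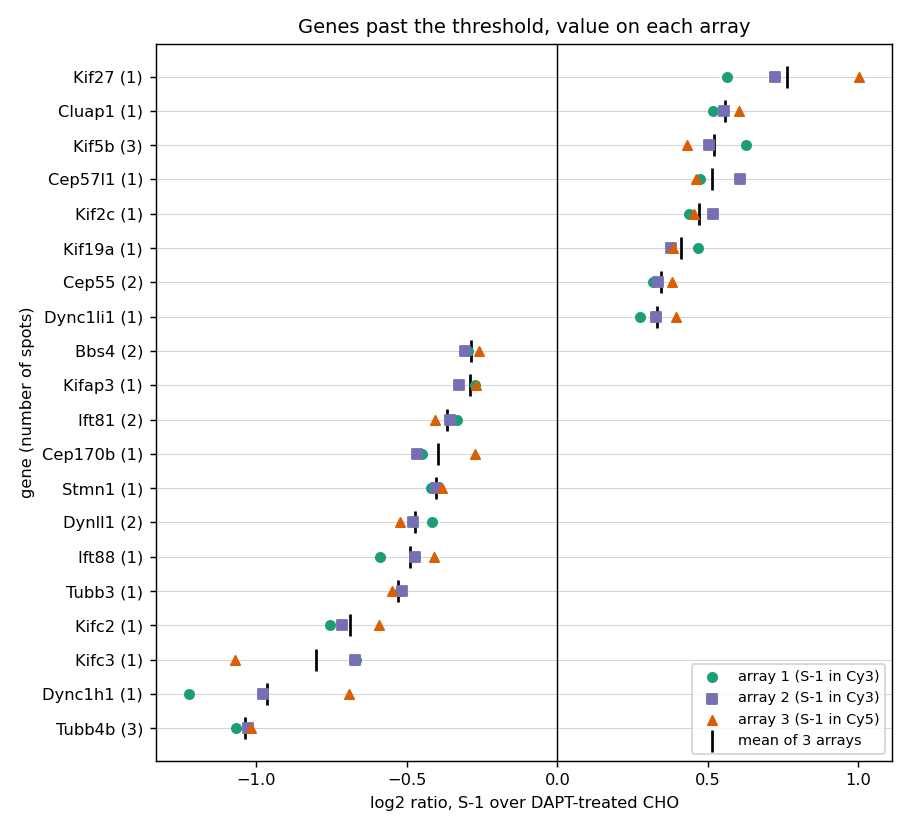
Log2 ratio, S-1 over DAPT-treated cells (horizontal axis), for the 20 genes past the threshold (rows), with 1 point per array and a bar for the mean. The points of each gene lie on 1 side of 0, from Tubb4b at -1.04 to Kif27 at 0.76.

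Tubb4b, a β-tubulin made in many tissues, was the most strongly reduced of the 72 genes. Its gene value was -1.07, -1.03 and -1.02 on arrays 1, 2 and 3, a mean of -1.04 ± 0.03 (SD, n = 3) and a level 2.05-fold lower in S-1 (limma, adjusted p = 1.51e-04). Its 3 clones, at -0.99, -1.11 and -1.01, each passed on their own. Tubb3, the β-tubulin class best known from neurons, was lower as well. Its single clone read -0.52, -0.52 and -0.55, a mean of -0.53 ± 0.02 (adjusted p = 7.45e-04).

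The other β-tubulins did not pass. Tubb2b averaged -0.33 ± 0.19 (adjusted p = 0.0267), with a 95% interval from -0.54 to -0.12. Tubb6 read -0.18, -0.01 and -0.87, so that its mean of -0.36 came largely from the dye-swapped array. Tubb5, a β-tubulin of many tissues, had 7 clones with means between -0.07 and 0.32. Its gene value was 0.17, 0.25 and -0.12 (mean 0.10 ± 0.20, adjusted p = 0.381), and 5 of its 7 clones were positive on arrays 1 and 2 and negative on array 3. Calls among the β-tubulins thus came from 2 of 5 genes, beside calls for 22.6% of all genes. Mapt (tau), another neuronal microtubule gene, read -0.03, 0.29 and -0.33, and the neuronal stathmin Stmn3 had a mean of 0.12 ± 0.05, and neither passed.

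Proteins that start or restrain microtubule growth were measured by few genes. Stmn1, stathmin, which sequesters tubulin dimers, was at -0.42, -0.40 and -0.38 (mean -0.40 ± 0.02, limma adjusted p = 0.00160) and was lower on every array. Of the γ-tubulin ring complex, which nucleates microtubules, Tubgcp2 was at 0.21 ± 0.07 (adjusted p = 0.0224) and Tubgcp5 at 0.00 ± 0.08, and neither passed. Mapre1, which encodes the plus-end protein EB1, averaged -0.06 ± 0.14 over 3 clones that fell on both sides of 0, with a 95% interval from -0.22 to 0.11.

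Cytoplasmic dynein is the motor that walks to the minus end, and its subunits did not move together. Dync1h1, the heavy chain that holds the motor domain, read -1.22, -0.98 and -0.69 on its only clone, and it had the widest spread of the called genes (mean -0.96 ± 0.27, 1.95-fold lower in S-1, limma adjusted p = 0.00193). Dynll1, a light chain of the LC8 type that also binds many partners outside dynein, was at -0.42, -0.48 and -0.52 (mean -0.47 ± 0.05, adjusted p = 0.00129). Both of its clones passed, at -0.43 and -0.52. Dync1li1, a light intermediate chain that links the motor to cargo adaptors, was instead higher, at 0.27, 0.33 and 0.39 (mean 0.33 ± 0.06, adjusted p = 0.00412).

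The remaining dynein genes did not pass. Dync1li2, the other light intermediate chain, was at -0.07 ± 0.06, and the intermediate chain gene Dync1i2 was at 0.09 ± 0.10. The light chain genes Dynll2, Dynlrb1, Dynlrb2, Dynlt1b and Dynlt3 lay between 0.03 and 0.21, all positive. Dynll1 and its paralog Dynll2 thus had gene values of opposite sign, with 95% intervals of -0.59 to -0.36 and -0.02 to 0.28. Of dynactin, the cofactor that activates dynein, only Dctn5 (0.18 ± 0.06) and Dctn6 (0.30 ± 0.12, adjusted p = 0.0135), subunits of its pointed end, were measured, and neither passed.

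Both measured kinesins of the minus-end-directed type were lower in S-1, beside 10.3% lower among all genes. With 2 genes, the type as a whole cannot be judged. Kifc3, which has been placed at cell junctions and in apical transport of epithelial cells, read -0.67, -0.67 and -1.07 (mean -0.80 ± 0.23, 1.75-fold lower in S-1, limma adjusted p = 0.00237). Kifc2, known in mouse from neurons, read -0.76, -0.72 and -0.59 (mean -0.69 ± 0.09, adjusted p = 6.65e-04). Each rested on 1 clone.

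Of 5 kinesins that carry cargo to the plus end and Kif26a, an atypical kinesin set beside them, only Kif5b passed. Kif5b, the heavy chain of conventional kinesin, had a gene value of 0.63, 0.50 and 0.43 (mean 0.52 ± 0.10, limma adjusted p = 0.00171). Its 3 clones spread from 0.15 to 1.05, the widest range of the 25 genes with several clones. None of the 3 passed by itself, and with the median of the clones in place of the mean the gene value was 0.29 and no longer passed (adjusted p = 0.0217). The light chain genes Klc1 and Klc4, which tie Kif5b to its cargo, were at -0.18 ± 0.05 and -0.19 ± 0.08 (adjusted p = 0.0252 and 0.0320) and did not pass. Kif1b, a carrier of synaptic vesicle precursors and mitochondria, had 1 clone that was lower (-0.34, adjusted p = 0.00368) and another at -0.02, and its gene value of -0.18 did not pass. Kif1c, Kif13a, Kif16b and Kif26a ranged between -0.01 and 0.09.

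Of 7 measured kinesins of the mitotic spindle, 6 lay above 0, with a median of 0.17, a lean that was not tested. Only Kif2c passed, beside 12.4% higher and 10.3% lower among all genes. Kif2c, which depolymerises microtubules at centromeres, was at 0.44, 0.52 and 0.45 (mean 0.47 ± 0.04, limma adjusted p = 0.00121). Its relative Kif2a, of the same depolymerising class, was at -0.06 ± 0.09 over 3 clones. Kif22, the chromosome arm motor, had clones at 0.14 and 0.56 and a gene value of 0.35 ± 0.15 (adjusted p = 0.0123). Kif11, which keeps the spindle bipolar, Kif14 and Kif23, which act in cytokinesis, and Kif18a, which limits the length of kinetochore microtubules, ranged between 0.11 and 0.17. The 3 clones of Kif23 were close to each other, from 0.14 to 0.19.

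**Figure D2:**
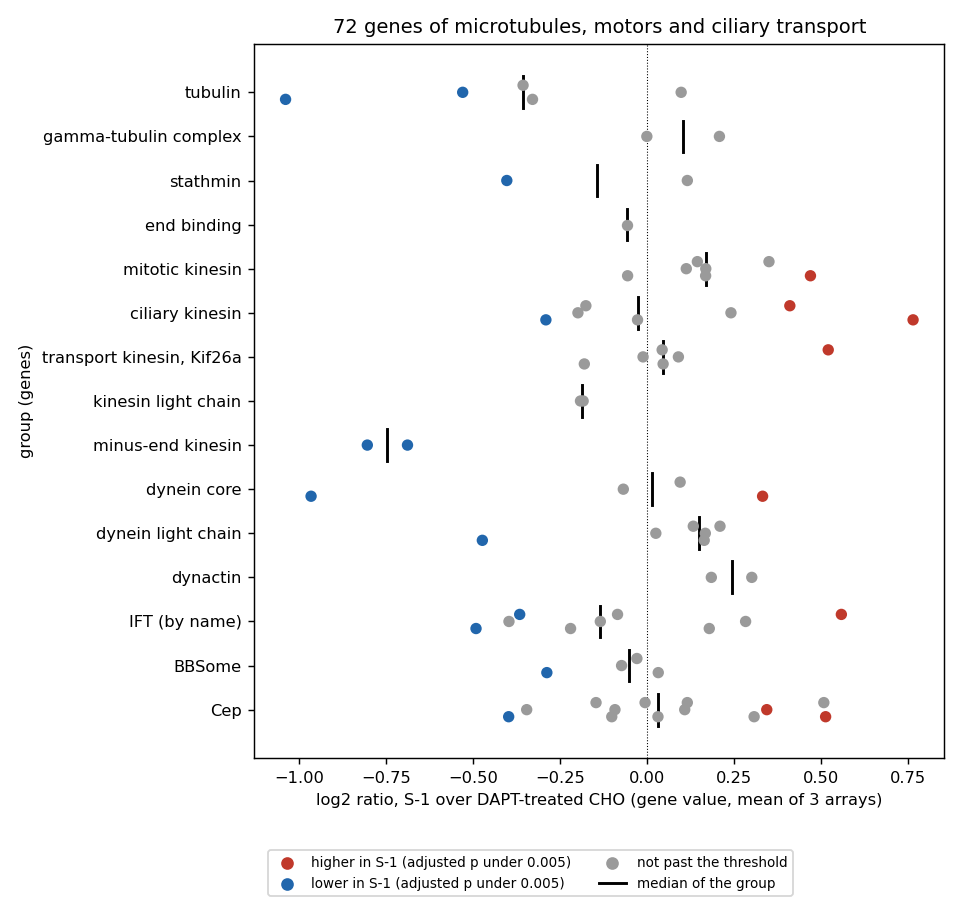
Gene values (log2 ratio, S-1 over DAPT-treated cells, mean of 3 arrays, horizontal axis) of the 72 genes by group (rows), coloured by call, with a line at each group's median. Both measured minus-end kinesins lie at or below -0.69, while the IFT genes run from -0.49 to 0.56.

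The ciliary kinesins held changes in both directions. Kif27, a relative of the Hedgehog regulator Kif7 and needed for motile cilia in mouse, had the highest value of all 72 genes, at 0.56, 0.72 and 1.002 (mean 0.76 ± 0.22, 1.70-fold higher in S-1, limma adjusted p = 0.00249). Kif19a, which trims the tips of motile cilia in mouse, was at 0.47, 0.38 and 0.38 (mean 0.41 ± 0.05, adjusted p = 0.00193). The 95% interval of Kif7 itself ran from -0.35 to -0.05 around a mean of -0.20 (adjusted p = 0.0423), short of the threshold.

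Kinesin-II, the heterotrimer that drives transport toward the tip of the cilium, was represented by Kif3a, Kif3b and Kifap3. Its accessory subunit gene Kifap3 was lower, at -0.28, -0.33 and -0.27 (mean -0.29 ± 0.03, limma adjusted p = 0.00474). The motor subunit gene Kif3b was at -0.18 ± 0.09 (adjusted p = 0.0461). Kif3a, which pairs with Kif3b, read 0.62 and 0.53 on arrays 1 and 2 but -0.43 on array 3 and gave no call (adjusted p = 0.412). The subunits thus gave 1 call among 3, near the threshold.

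The IFT particle, which rides on kinesin-II and dynein, had calls in both directions. Of the 9 genes named Ift or Cluap1, 1 was higher and 2 were lower, with a median of -0.13. Among all genes, 12.4% were higher and 10.3% lower, and the difference was not tested. Ift88, a core subunit of the IFT-B complex whose loss stops cilium assembly in mouse, read -0.59, -0.47 and -0.41 (mean -0.49 ± 0.09, limma adjusted p = 0.00180). Ift81, which binds tubulin together with Ift74, had a gene value of -0.33, -0.36 and -0.41 (mean -0.37 ± 0.04, adjusted p = 0.00244), from 1 clone at -0.56 that passed and another at -0.17 that did not. Cluap1, also of IFT-B, was higher, at 0.52, 0.55 and 0.60 (mean 0.56 ± 0.04, adjusted p = 7.52e-04).

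Partners within IFT-B therefore differed in sign. Ift74 stood at 0.28 ± 0.13 over 2 clones (adjusted p = 0.0176), opposite in sign to Ift81, its partner. Ift46 was at -0.40 ± 0.16 (adjusted p = 0.00944), Ift52 at -0.08 ± 0.10 and Ift20, which also works at the Golgi, at 0.18 ± 0.06, and none of these passed. Of the IFT-A complex, which serves the return journey, Ift122 had 1 clone that was lower (-0.36, adjusted p = 0.00412) and another at -0.08, with a gene value of -0.22 (adjusted p = 0.0145). Ift43 was at -0.13 ± 0.07. In the BBSome, the coat that moves membrane proteins out of cilia, Bbs4 was lower, at -0.30, -0.31 and -0.26 (mean -0.29 ± 0.03, adjusted p = 0.00471), with clones at -0.36 and -0.22. Bbs1, Bbs2 and Bbs7 lay between -0.07 and 0.03.

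Of the 13 Cep genes, 2 were higher, 1 was lower and 10 did not pass, beside 12.4% higher and 10.3% lower among all genes. Cep57l1, a paralog of the centriole protein Cep57, was at 0.47, 0.61 and 0.46 (mean 0.51 ± 0.08, limma adjusted p = 0.00140). Cep55, which recruits the abscission machinery at the end of cell division, was at 0.32, 0.33 and 0.38 (mean 0.34 ± 0.03, adjusted p = 0.00286), with clones at 0.31 and 0.38. Cep170b was lower, at -0.45, -0.47 and -0.28 (mean -0.40 ± 0.11, adjusted p = 0.00436).

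Some Cep genes lay just beyond the threshold. Cep83 (0.31 ± 0.06, limma adjusted p = 0.00512) and Cep164 (0.51 ± 0.19, adjusted p = 0.00629) belong to the distal appendages by which the mother centriole docks to the membrane, and both were positive on every array. Cep89, of the same structure, was at 0.11 ± 0.06. Cep170, a paralog of Cep170b, read -0.51, -0.52 and -0.01 and did not pass. The other 6, Cep68, Cep70, Cep112, Cep120, Cep162 and Cep295, ranged from -0.15 to 0.12.

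Several spots of a gene gave a further check of its values, although the annotation does not say whether they hold different stretches of the transcript. Of the 25 genes with several clones, 17 had all clone means on 1 side of 0 and 8 had them on both sides. The median range between the clones of a gene was 0.12. Every clone passed for Tubb4b and Dynll1, some did for 5 genes and none for 18, and in no gene did clones pass in opposite directions. Of the 20 called genes, 14 rested on 1 clone each, Dync1h1, Kifc3 and Kif27 among them. Between clone and gene values the calls differed for a few genes, since 4 genes passed with no clone past the threshold (Kif5b, Kifap3, Dync1li1 and Cep170b) and 2 had a passing clone without a passing gene value (Ift122 and Kif1b).

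**Figure D3:**
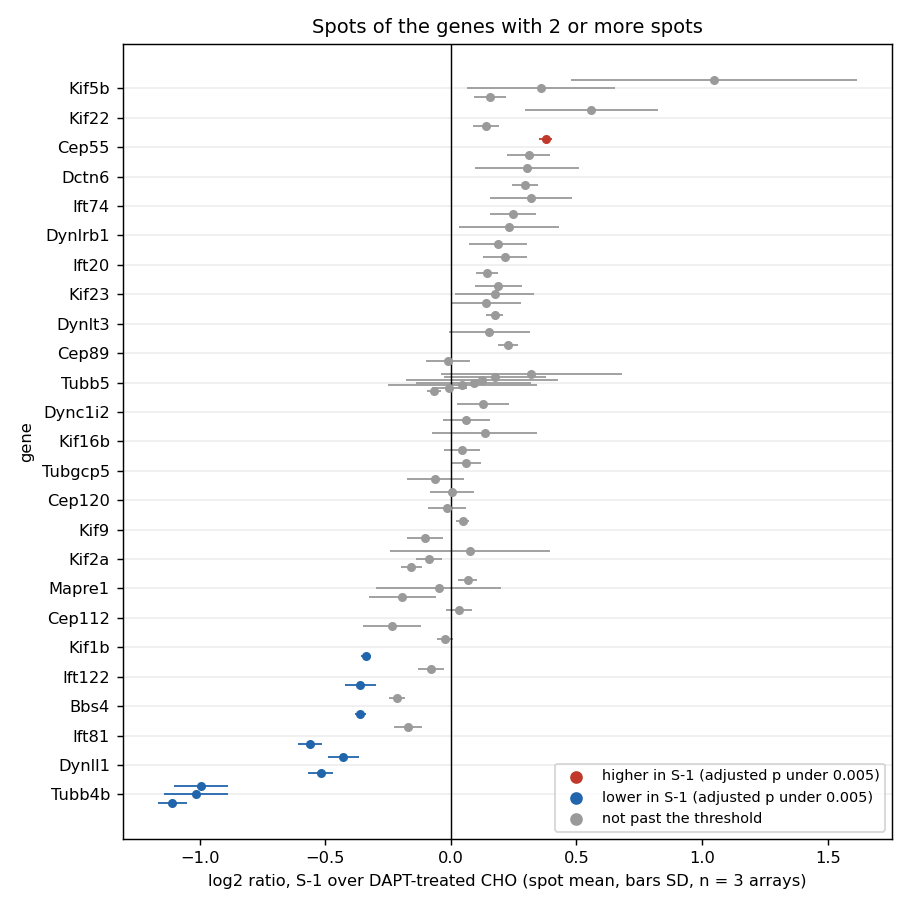
Log2 ratio (mean of 3 arrays, S-1 over DAPT-treated cells, horizontal axis) of each clone, for the 25 genes with 2 or more clones (rows), coloured by call. The 3 clones of Tubb4b lie together near -1, whereas those of Kif5b run from 0.15 to 1.05.

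The dye-swapped array set some members apart. In 16 of the 107 spots (15.0%, beside 17.0% of all tested spots) array 3 had the opposite sign to both other arrays. None of these 16 passed, but a spot whose arrays differ in sign can hardly pass a test against 0. The median absolute gap between array 3 and the mean of arrays 1 and 2 was 0.12 for the 107 spots and 0.12 for all tested spots. The gap was over 0.5 in 9 spots (8.41%, beside 4.23% of all tested spots, a difference that was not tested), of Kif3a, Tubb6, Kif2a, Kif18a, Cep170 and, with 2 clones each, Kif5b and Tubb5. The dye of array 3 cannot be told apart from its cultures. A fit that gave the dye its own term called 17 of the 72 genes higher and 20 lower, 51.4% in all, beside 44.9% of all 8146 genes.

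**Figure D4:**
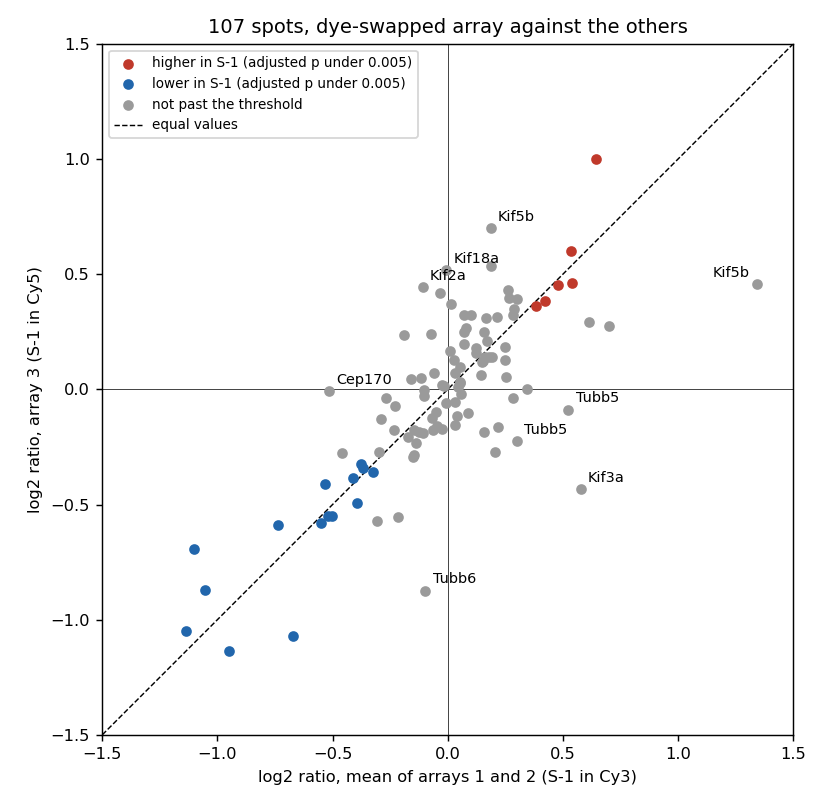
Log2 ratio on array 3, with S-1 in Cy5 (vertical axis), against the mean of arrays 1 and 2, with S-1 in Cy3 (horizontal axis), for the 107 spots, coloured by call. The spots past the threshold lie in the quadrants of equal sign, which the test all but requires. The 9 named spots differ by more than 0.5 between both axes.

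Other genes of the same structures were taken from lists of known function. Of 33 measured genes of microtubule-associated and regulating proteins, 4 were higher (12.1%), 5 lower (15.2%) and 24 did not pass (median -0.04), beside 12.4% higher and 10.3% lower among all genes. Dpysl2, a collapsin response mediator that binds tubulin, was at -0.99 ± 0.33, with -1.18, -1.17 and -0.61 on the arrays (limma adjusted p = 0.00317). Bicd2, the adaptor that joins dynein to dynactin, was at -0.93, -0.98 and -0.79 (mean -0.90 ± 0.10, adjusted p = 3.55e-04), and Map4, the main microtubule-associated protein of non-neuronal cells, was at -0.49 ± 0.08 (adjusted p = 0.00149). Nudc, a dynein-associated chaperone, was at 0.57 ± 0.07 (adjusted p = 9.27e-04), beside the severing protein gene Fignl1 at 0.47 ± 0.05.

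Genes of tubulin folding had the highest median of the 5 lists. Of 19 measured genes of tubulin folding and modification, 6 were higher (31.6%, beside 12.4% of all genes), 2 lower (10.5%, beside 10.3%) and 11 did not pass, and the median was 0.29, beside 0.01 for all genes. The difference from all genes was not tested. The 6 were the chaperonin subunits Tcp1 (0.52 ± 0.16), Cct4 (0.45 ± 0.07), Cct5 (0.52 ± 0.03) and Cct7 (0.45 ± 0.07), which fold tubulin and actin, the prefoldin subunit Pfdn6 (0.52 ± 0.17) and the tubulin deacetylase Hdac6 (0.43 ± 0.05). Pfdn5, another prefoldin subunit, was lower at -0.54 ± 0.05, and so was Arl2, a GTPase of tubulin assembly, at -0.39 ± 0.09.

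Genes listed for the centrosome and spindle had calls in both directions, but the only lower one was the centriole gene Cetn2. Of 38 measured genes of the centrosome and spindle, 7 were higher (18.4%, beside 12.4% of all genes), 1 lower (2.63%, beside 10.3%) and 30 did not pass (median 0.11), and these shares were not tested against all genes. Zwilch, of the kinetochore, was highest at 0.73, 0.85 and 0.87 (mean 0.81 ± 0.07, limma adjusted p = 3.26e-04), followed by Ckap2 (0.57 ± 0.14), the checkpoint kinase gene Bub1 (0.51 ± 0.12) and Tacc3 (0.49 ± 0.09), a spindle protein. Cetn2, a centriole protein, was lower at -0.56 ± 0.07.

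Of 26 other measured genes of the primary cilium, 2 were higher (7.69%), 4 lower (15.4%) and 20 did not pass (median -0.02), beside 12.4% higher and 10.3% lower among all genes. They include further IFT subunits that do not carry the Ift name, and none of these passed. Of IFT-A, Wdr19 was at -0.15 ± 0.08, Wdr35 at -0.03 ± 0.09 and Ttc21b at 0.08 ± 0.22, and of IFT-B, Traf3ip1 was at 0.18 ± 0.10 (adjusted p = 0.0499). Amn1 had the strongest change at -3.62 ± 0.13 (limma adjusted p = 1.35e-04), but its name comes from a yeast regulator of mitotic exit and a role in cilia is not established. Evc2, a Hedgehog regulator at the cilium base, was at -0.83 ± 0.09, Nek8, a ciliary kinase, at -0.65 ± 0.08 and Gli2, the Hedgehog transcription factor, at -0.35 ± 0.06. Rabl2 (0.53 ± 0.10) and Lztfl1 (0.37 ± 0.09), which act in transport into and out of cilia, were higher. Of 12 genes of motile cilia, only the radial spoke gene Rsph3a passed, at -0.31 ± 0.02 (adjusted p = 0.00351).

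**Figure D5:**
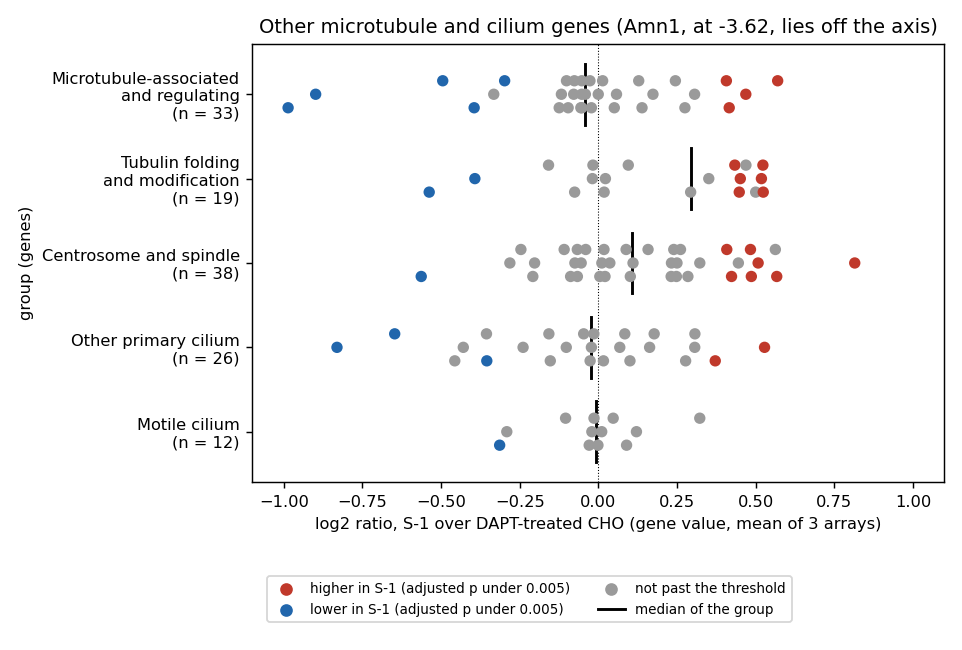
Gene values (log2 ratio, S-1 over DAPT-treated cells, mean of 3 arrays, horizontal axis) of the genes of the 5 lists of related function (rows), coloured by call, with a line at the median of each list. The medians run from -0.04 to 0.29, and Amn1, at -3.62, lies off the axis.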

How the data were processed

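RNA of S-1 and DAPT-treated CHO cells was amplified, labelled with Cy3 or Cy5 and hybridised in 3 independent pairs of cultures. The authors scanned them into GenePix Pro 6.0, left the background in place, applied lowess within each print-tip group in R, and deposited log2 ratios for every spot. Intensities were not used here, so depth is unknown and the number of arrays limits the precision. No further normalisation was applied. Control spots (736, at 23 positions of each of 32 blocks) were excluded, a choice that followed a look at the values. They were inferred from positions that carry no gene name in any block. Each spot, and the mean over spots that share a name, was tested against 0 by limma 3.58.1 (R 4.3.3), with empirical Bayes variance and Benjamini-Hochberg adjustment over all spots or all genes, at the study's threshold of 0.005. Intervals are 95% limma intervals. Intervals and p-values rest on the spread between 3 arrays, with each variance drawn toward a value estimated from all spots or all genes. Gene names came from the platform annotation.

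The members and gene lists were chosen with earlier results of these data known. Genes named in full were those with a spot past the threshold, the 10 largest values in each direction, clones that disagreed, the extremes of each group and up to 4 called genes of each list. Kifap3 and the other genes were named after their values were seen. Alternatives were a threshold of 0.05, centring, scaling, quantile normalisation, array weights, a robust prior, a dye coefficient, control spots included, clone collections left out or centred, a median in place of the mean over spots, and each array left out. The fit was tested on simulated data. Python 3.11.15 with pandas 2.3.3, NumPy 2.4.6 and Matplotlib 3.10.9 made tables and figures.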

Additional observations from a re-analysis of the deposited data

How the results depend on the processing

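The reported counts were 6 spots higher and 15 lower, and 8 genes higher and 12 lower. At a threshold of 0.05 they were 23 and 25 spots and 19 and 20 genes, while calls in either direction covered 39.8% of all tested spots and 46.2% of all genes. With the dye as a coefficient they were 21 and 24 spots and 17 and 20 genes (40.4% of all spots and 44.9% of all genes). Array weights gave 16 higher spots and 13 higher genes (31.9% and 38.5% called of all). With control spots included, 1 spot was higher and 7 were lower (6.71% of all spots). Leaving out 1 array gave 0 to 21 higher spots, 0 to 23 lower spots, 0 to 15 higher genes and 1 to 17 lower genes. The limma counts of 0 stood beside 18 higher and 24 lower spots and 15 higher genes at an unadjusted p under 0.05 without array 2, and 15 higher genes without array 1. The other counts were within 1.5 times the reported ones. Among the 33 genes followed, Kifap3 included, no call turned its direction under 15 alternatives. With an array left out the called genes could not turn, since each had 1 sign on all 3 arrays. Tubb4b passed under all 15, with a highest adjusted p of 0.00203 (limma). Bbs4 and Kifap3 were lost with the robust prior (adjusted p = 0.00504 and 0.00506), and Kif5b with the median of its spots. The reported test is already paired, since each ratio sets both cultures of an experiment against each other. All 3 arrays form 1 group, so no further pairing was possible. Low signal over background could not be judged.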

Other observations

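There were 9 spots with several gene names, at least 1 of them of the families described, which were left out above because a value could belong to either gene. Of these, 0 were higher, 2 were lower and 7 did not pass limma's test, against 3 higher and 5 lower at an unadjusted p under 0.05. Among all tested spots, 9.68% were higher and 8.52% lower. The 2 lower spots carry the same pair of names. The 3 spots named Tuba1b and Tuba1a, the α-tubulins that share most of their sequence, had means of -0.29, -0.03 and -0.12 and did not pass (limma). Both of these names belong to the families described, and α-tubulins are absent from the 72 genes. Both spots named Cep295nl and Timp2 were lower in S-1, at -2.64 ± 0.42 and -2.36 ± 0.27 (SD, n = 3, limma adjusted p = 3.67e-04 and 1.60e-04). A spot named Dync1i1 and Col18a1 was at -0.48, and a spot named Ift27 and Amhr2 was at 0.13. The 2 spots named Bbs12 and Fgf2 were at 0.69 ± 0.44 and 2.03 ± 0.83, the second of them at a position for which the study lists no clone. Neither passed, and on array 3 they were close, at 1.20 and 1.09.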
